A study of Mus musculus with 15 samples.

Results

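Innate immune sensors recognise nucleic acids and microbial products inside or at the surface of a cell, and 9 genes that encode such sensors or the adaptors next to them were followed here in mouse lung fibroblasts: Zbp1, Ifih1, Dhx58, Mavs, Tlr3, Ticam1, Tlr2, Tlr4 and Myd88. They were chosen by name, and every probe set of the array whose only gene symbol was one of the 9 was taken, which gave 17 of 45036 probe sets. Each gene was represented by its brightest probe set, so that 9 of 18193 genes were described, and 4 of the 9 had a single probe set. Fibroblasts had been sorted from lungs of female NSG mice (NOD.Cg-Prkdc scid Il2rg tm1Wjl/SzJ), which lack T cells, B cells and natural killer cells but keep myeloid cells. All mice were of this strain, and they were 6 to 8 weeks old when they entered the experiment. They had received a tail vein injection of MDA-MB-231 human breast cancer cells (MDA) or of the derivative line MDA-MB-231-LM2 (MDA-LM2), which was selected for lung colonisation, and lungs were taken at week 1, when metastases were mostly microscopic (micro), or at week 3, when large metastases were widespread (macro). The healthy group was age-matched and had received no cancer cells. Each of the 5 groups (healthy, MDA micro, MDA-LM2 micro, MDA macro and MDA-LM2 macro) had 3 arrays, each from fibroblasts of 1 to 3 mice, and mice of similar bioluminescence had been selected so that the lines were compared at similar metastatic load.

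Toll-like receptors sit in the plasma membrane (TLR2, a receptor for bacterial lipoproteins, and TLR4, the receptor for lipopolysaccharide) or in endosomes (TLR3, a receptor for double-stranded RNA). They signal through MYD88, which most of them use, or through TRIF, the product of Ticam1, which TLR3 depends on and TLR4 also uses. In the cytoplasm MDA5, the product of Ifih1, binds long double-stranded RNA and signals through MAVS at mitochondria, LGP2, the product of Dhx58, modulates that step, and ZBP1 binds left-handed double-stranded nucleic acids and engages the kinase RIPK3, which activates the pore-forming protein MLKL. Several of these genes are themselves targets of interferon.

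Sorting used PDGFRA or PDGFRB (CD140a, CD140b) as positive markers and CD45, CD11b, CD31 and EPCAM as negative markers. The summed intensity of 8 fibroblast markers was between 75019 and 80790 on every array, but single markers differed. Against healthy, 2 of the 8 rose and 2 fell in MDA macro (limma adjusted p under 0.05), where 15.2% of all genes were called. In MDA-LM2 macro 1 rose and 3 fell, where 22.6% of all genes were called. The mean log2 intensity of Pdgfra was 12.41 in healthy, 11.79 in MDA macro and 11.84 in MDA-LM2 macro. That of Pdgfrb was 11.85, 12.405 and 12.21. Of the genes that encode the 4 negative sorting markers, Ptprc (CD45) lay between 6.26 and 6.57 on the log2 scale on all arrays. Itgam (CD11b) lay between 5.53 and 6.63, and both had means in the dimmest 25% of genes. Epcam lay between 6.47 and 6.72. Pecam1 (CD31) lay between 6.89 and 8.27, with a mean near the middle of all probe sets. Among macrophage genes Adgre1 was dim, between 5.93 and 6.53, while Cd68 lay between 6.85 and 9.42 and Lyz2 between 7.39 and 10.39. The arrays were alike in brightness, with median log2 intensities between 7.44 and 7.54. The 3′ probe set of Gapdh exceeded the 5′ one, a measure of RNA integrity and amplification, by 1.16 to 1.70 on the log2 scale in healthy, 1.37 to 1.44 in MDA micro, 1.18 to 1.24 in MDA-LM2 micro, 1.03 to 1.43 in MDA macro and 1.01 to 1.05 in MDA-LM2 macro arrays, and the part of this in the values below was not tested. In these bulk samples a smaller share of expressing cells and less RNA per cell cannot be told apart.

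With the probe set that stands for each gene, Zbp1 had the widest range of the 9 genes in group means. With these probe sets it was the only one above healthy fibroblasts in all 4 metastasis groups without any overlap of arrays. A further probe set of Dhx58, described below, also lay above healthy in all 4 groups without overlap. Its log2 intensity was 8.93, 8.85 and 9.34 in healthy fibroblasts. With micrometastases it was 9.88, 9.98 and 9.86 in the MDA group and 10.84, 10.64 and 10.64 in the MDA-LM2 group. With macrometastases it was 11.91, 12.001 and 11.71 in the MDA group and 11.87, 12.15 and 11.92 in the MDA-LM2 group. The groups formed steps from healthy over MDA micro and MDA-LM2 micro to the macrometastasis groups, and only the MDA macro and MDA-LM2 macro arrays overlapped each other. Against healthy fibroblasts Zbp1 rose in MDA macrometastases by 2.83 ± 0.17 on the log2 scale (SE, limma adjusted p = 0.00031), which is 7.12-fold, and in MDA-LM2 macrometastases by 2.94 ± 0.16 (adjusted p = 0.00013), which is 7.67-fold. The second probe set of Zbp1 was dimmer and gave 2.67 ± 0.17 and 2.77 ± 0.17 in the same comparisons (adjusted p = 0.00058 and 0.00028).

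**Figure D1:**
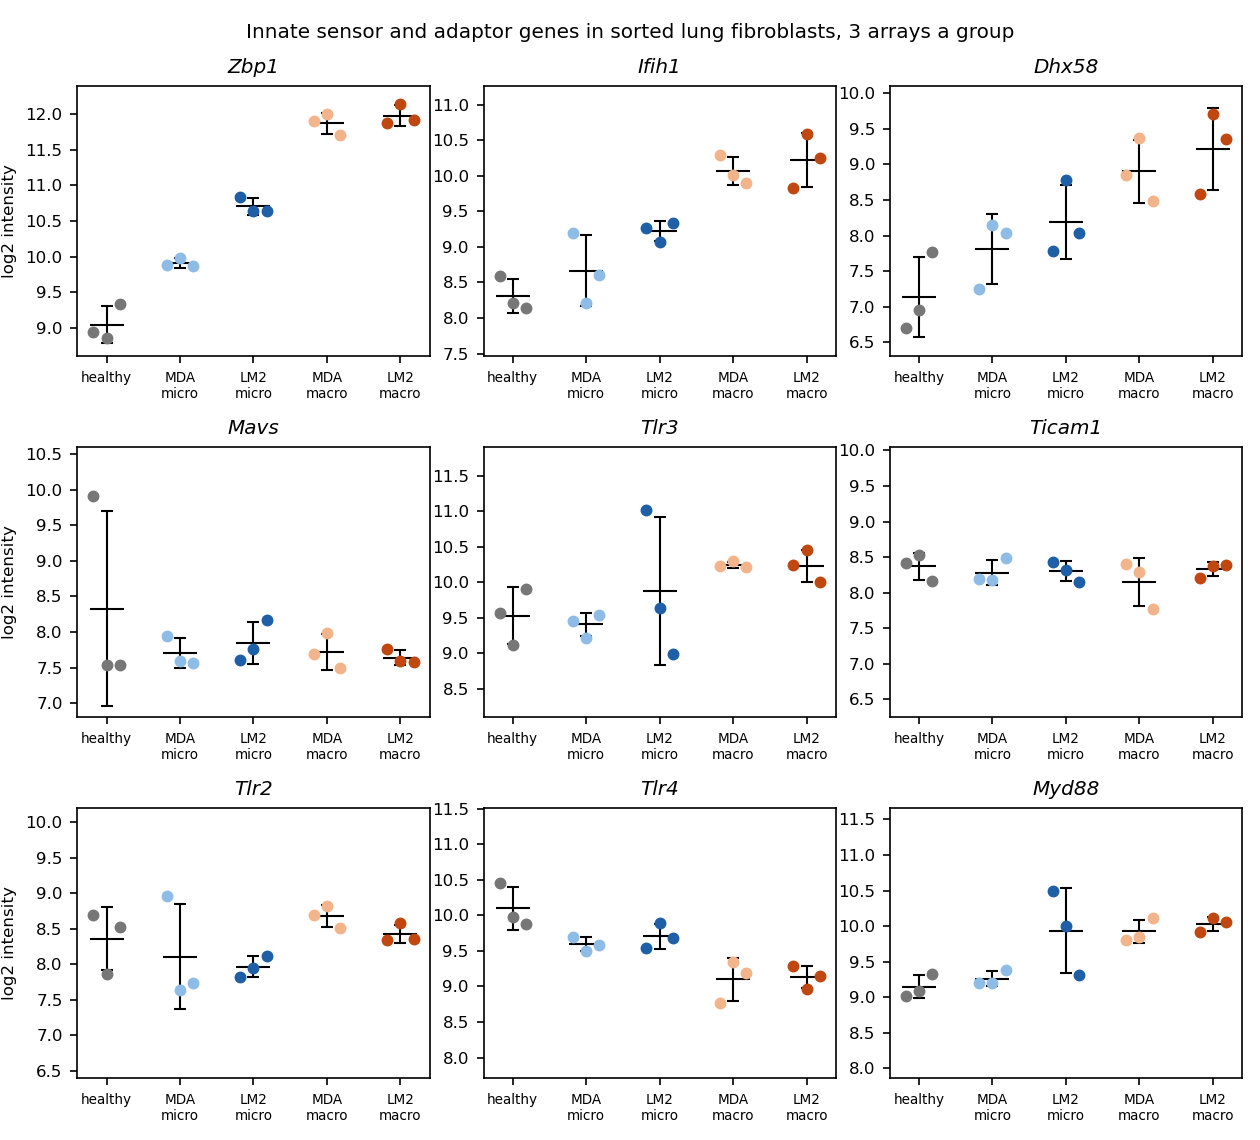
Log2 intensity of the 9 genes on each of the 15 arrays, with the group on the horizontal axis (LM2 stands for MDA-LM2). Points are single arrays, black lines the group mean with its SD (n = 3), and every panel spans the same number of log2 units around its own centre; Zbp1 climbs from 9.04 in healthy fibroblasts to 11.98 in the MDA-LM2 macro group, Tlr4 runs the other way, and one healthy array of Mavs at 9.91 stands above all others.

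At the micrometastatic stage the question was whether fibroblasts already differed from healthy ones, and Zbp1 was the only one of the 9 that passed. In MDA micrometastases 0 of the 9 genes, as 0% of all genes, passed an adjusted p of 0.05 (limma with Benjamini-Hochberg adjustment), while at an unadjusted p under 0.05 the count was 2 members and 1542 genes. On the log2 scale those members differed from healthy by 0.87 ± 0.15 (Zbp1, adjusted p = 0.29) and by -0.50 ± 0.17 (Tlr4, adjusted p = 0.53). With the probe set that stands for each gene, they were also the 2 of 9 whose arrays did not overlap with healthy, where 14.3% of all genes did not overlap. In MDA-LM2 micrometastases 1 of the 9 genes rose, where 0.583% of all genes were called and 0.467% were higher: Zbp1 was 3.17-fold higher (log2 fold change 1.66 ± 0.16, adjusted p = 0.019). With the same choice of probe sets Zbp1, Ifih1 and Dhx58 were the 3 of 9 whose arrays did not overlap with healthy, against 18.5% of all genes. This call was lost in a fit without any 1 of 5 of the 6 arrays, namely MDA-LM2 micro replicates 1 (1.60, adjusted p = 0.092), 2 (1.70, 0.065) and 3 (1.70, 0.090) and healthy replicates 1 (1.61, 0.092) and 2 (1.57, 0.066), and with a replicate block (adjusted p = 0.081). The second Zbp1 probe set gave 1.14 ± 0.20 (adjusted p = 0.11).

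Between the lines at this stage, every MDA-LM2 array of Zbp1 lay above every MDA array, by 0.80 ± 0.12 on the log2 scale (95% interval 0.52 to 1.07), and the adjusted p was 0.051. Of the 9 genes 0 were called in this comparison, where 0.412% of all genes were. At an unadjusted p under 0.05 in limma the count was 2 of the 9 and 2121 of 18193 genes. With the probe set that stands for each gene, Zbp1 was the only one of the 9 without overlap between the lines, against 18.2% of all genes. With all 15 arrays in one fit, which shares the estimate of the spread over the 5 groups, Zbp1 passed both against healthy in MDA micrometastases (adjusted p = 0.041) and between the lines (adjusted p = 0.011). The second Zbp1 probe set, in the fit of 2 groups, gave 0.43 ± 0.14 (adjusted p = 0.56) and 0.71 ± 0.18 (adjusted p = 0.26). With a replicate block 0 of all genes were called between the lines.

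Ifih1 encodes MDA5, the cytoplasmic receptor for long double-stranded RNA. In the RefSeq promoter table (GRCm38.p6) the window around its start, from 250 bases before to 50 after, held 1 copy of the core of the interferon-stimulated response element, spelled GAAANNGAAA and searched on both strands. It lay 33 to 42 bases after the annotated start. It is shown because Ifih1 and Myd88, among the 6 genes with a window in the table, were those with this core, which 3.44% of all 32851 windows held. Capitals mark the match, in chr2:62646206-62646233 on the minus strand.
Ifih1: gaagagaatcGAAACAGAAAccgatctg
The log2 intensity of Ifih1 was 8.59, 8.22 and 8.14 in healthy fibroblasts. It was 9.19, 8.21 and 8.60 in MDA micrometastases and 9.26, 9.07 and 9.34 in MDA-LM2 micrometastases. It reached 10.29, 10.01 and 9.90 in MDA macrometastases and 9.82, 10.59 and 10.25 in MDA-LM2 macrometastases. The MDA micro arrays overlapped with healthy, the MDA-LM2 micro arrays lay above healthy and the macro arrays lay above every other array. Ifih1 rose 3.37-fold in MDA macrometastases (log2 fold change 1.75 ± 0.17, adjusted p = 0.0013) and 3.75-fold in MDA-LM2 macrometastases (1.91 ± 0.22, adjusted p = 0.0014). In MDA-LM2 micrometastases its log2 fold change was 0.91 ± 0.16, with an adjusted p of 0.076.

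Dhx58 encodes LGP2, a helicase that binds RNA like MDA5 but lacks the signalling domains. Its log2 intensity was 6.70, 6.95 and 7.77 in healthy fibroblasts. It was 7.25, 8.15 and 8.03 in MDA micrometastases and 7.78, 8.78 and 8.03 in MDA-LM2 micrometastases. It was 8.85, 9.37 and 8.49 in MDA macrometastases and 8.59, 9.71 and 9.36 in MDA-LM2 macrometastases. The arrays of a group spread more than for Zbp1, neighbouring groups overlapped, and both macro groups lay above healthy. Dhx58 rose by 1.77 ± 0.32 in MDA macrometastases (adjusted p = 0.013) and by 2.08 ± 0.36 in MDA-LM2 macrometastases (adjusted p = 0.0076). Another of its probe sets gave smaller values, 1.36 ± 0.13 and 1.14 ± 0.17, which also passed (adjusted p = 0.0017 and 0.0051). The dimmest gave 0.78 ± 0.30 and 0.45 ± 0.20 and did not (adjusted p = 0.13 and 0.16). The probe set with 1.36 and 1.14 also lay above every healthy array in both micro groups. Its log2 fold changes there were 0.36 ± 0.13 in MDA and 0.44 ± 0.12 in MDA-LM2 (limma adjusted p = 0.59 and 0.25).

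Mavs encodes the adaptor that MDA5 signals through, and it was not called in any comparison. Its log2 intensity was 9.91, 7.54 and 7.54 in healthy fibroblasts, so that healthy replicate 1 lay 1.74 above the next array of any group. The 12 metastasis arrays lay between 7.49 and 8.17. Its log2 fold changes against healthy were between -0.69 and -0.48 and turned to between 0.10 and 0.31 without healthy replicate 1. The second Mavs probe set also passed nowhere against healthy. Between the lines at the micrometastatic stage it gave -1.15 ± 0.22 (limma adjusted p = 0.14), with every MDA-LM2 array below every MDA array. The probe set that stands for Mavs gave 0.14 ± 0.19 there.

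Tlr3 encodes the endosomal receptor for double-stranded RNA. Its window in the RefSeq table held no GAAANNGAAA and 1 copy of GGGANNTTCC, a form of the NF-kB site that 1.47% of all windows held on either strand, and it was the only 1 of the 6 with that match. The start that this window was taken from lies 695 bases inside the annotated gene, so that the stretch shown lies within the gene, whereas the starts used for Ifih1 and Myd88 are the outer ones. The match, at positions -211 to -202 from the inner start, is shown in capitals with the bases around it, chr8:45410572-45410601 on the minus strand of GRCm38.p6.
Tlr3: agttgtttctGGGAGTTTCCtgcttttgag
The log2 intensity of Tlr3 was 9.56, 9.12 and 9.91 in healthy fibroblasts. It was 9.46, 9.22 and 9.55 in MDA micrometastases and 11.02, 9.63 and 8.99 in MDA-LM2 micrometastases. It was 10.23, 10.30 and 10.22 in MDA macrometastases and 10.24, 10.45 and 10.003 in MDA-LM2 macrometastases. Both macro groups lay above all healthy arrays, and MDA-LM2 micro replicate 1 was the highest of the 15 arrays while replicate 3 of that group was the lowest. The log2 fold change against healthy was 0.72 ± 0.20 in MDA macrometastases (adjusted p = 0.053) and 0.70 ± 0.22 in MDA-LM2 macrometastases (adjusted p = 0.060). Both passed with arrays centred on their median (adjusted p = 0.047 and 0.049) and without healthy replicate 3 (0.91 and 0.89, adjusted p = 0.024 and 0.031). The second probe set of Tlr3 was dim and gave 0.63 ± 0.26 and 0.38 ± 0.30 (adjusted p = 0.16 and 0.42).

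Ticam1 encodes TRIF, the adaptor that TLR3 requires. Its arrays lay between 7.76 and 8.53 on the log2 scale, all 5 groups overlapped, and the log2 fold changes against healthy were between -0.22 and -0.04, with 95% intervals that reached from -0.68 to 0.27 over the 4 groups. It was called in none of the 9 comparisons.

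Tlr2 and Tlr4 encode the receptors for bacterial lipoproteins and for lipopolysaccharide, and they behaved differently. Tlr2 was 8.70, 7.86 and 8.53 on the log2 scale in healthy fibroblasts and was not called against them in any group. Its values were 8.96, 7.63 and 7.73 in MDA micrometastases and 7.82, 7.95 and 8.12 in MDA-LM2 micrometastases. They were 8.70, 8.83 and 8.51 in MDA macrometastases and 8.34, 8.58 and 8.36 in MDA-LM2 macrometastases. The healthy range overlapped with all 4 groups, while the MDA-LM2 macro arrays lay above the MDA-LM2 micro arrays, by 0.46 ± 0.13 with an adjusted p of 0.053.

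Tlr4 was the only one of the 9 genes that fell. Its log2 intensity was 10.45, 9.97 and 9.88 in healthy fibroblasts. It was 9.70, 9.50 and 9.58 in MDA micrometastases and 9.54, 9.90 and 9.68 in MDA-LM2 micrometastases. It was 8.77, 9.35 and 9.18 in MDA macrometastases and 9.29, 8.97 and 9.14 in MDA-LM2 macrometastases. The 6 macro arrays lay below every other array, and MDA-LM2 micro overlapped with healthy at a single array. Tlr4 fell 1.998-fold in MDA macrometastases (log2 fold change -0.999 ± 0.21, adjusted p = 0.021) and 1.95-fold in MDA-LM2 macrometastases (-0.97 ± 0.18, adjusted p = 0.0094). The MDA call was lost without MDA macro replicate 1 (-0.83, adjusted p = 0.062) and with the replicate block (adjusted p = 0.063), and the MDA-LM2 call was lost when the mean of the 4 Tlr4 probe sets was used (-0.52, adjusted p = 0.060). Of the other 3 probe sets the brightest gave -0.61 ± 0.16 (adjusted p = 0.047) and -0.36 ± 0.18 (adjusted p = 0.22), the second gave -0.83 and -1.003 without passing, and the dimmest gave 0.08 and 0.23.

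**Figure D2:**
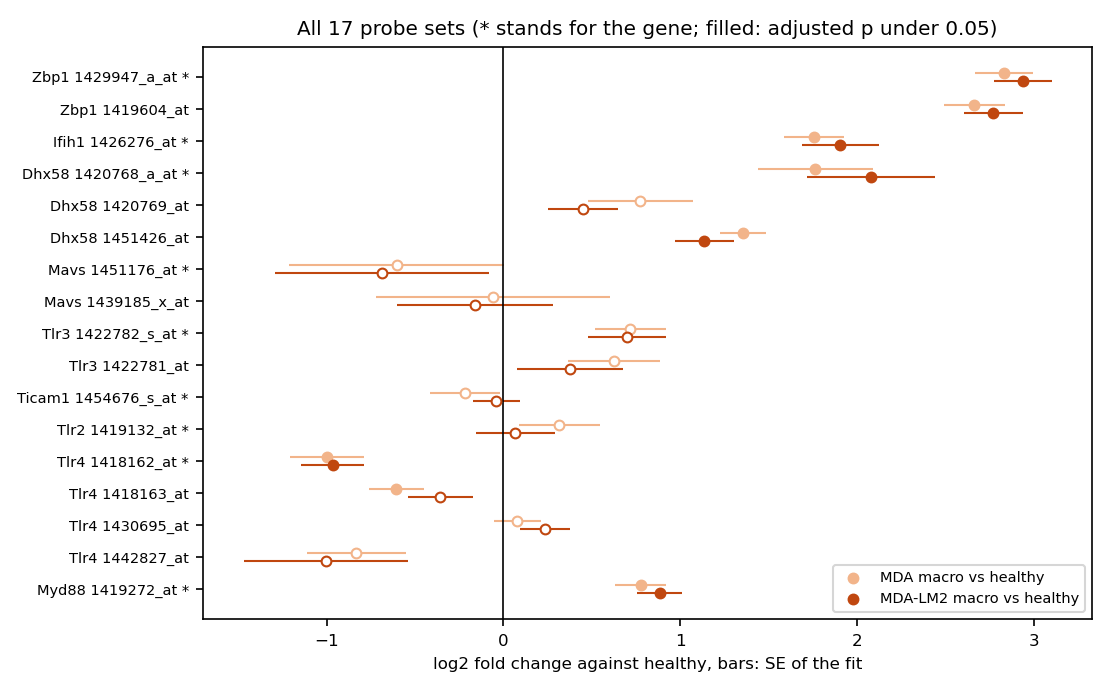
Log2 fold change against healthy with its SE (horizontal axis) for each of the 17 probe sets (vertical axis, named by gene and probe set; an asterisk marks the one that stands for the gene) in MDA macro (light) and MDA-LM2 macro (dark). Filled points passed an adjusted p of 0.05; both Zbp1 probe sets lie between 2.67 and 2.94, while the 3 Dhx58 probe sets range from 0.45 to 2.08 and the 4 Tlr4 probe sets from -1.003 to 0.23.

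Myd88 encodes the adaptor shared by most Toll-like receptors and by the interleukin-1 receptor family. The 100 bases before its start in the RefSeq table, chr9:119340019-119340118 on the minus strand of GRCm38.p6, are shown because they held the other copy of the response element core among these genes, at positions -40 to -31 from the start, in capitals.
Myd88: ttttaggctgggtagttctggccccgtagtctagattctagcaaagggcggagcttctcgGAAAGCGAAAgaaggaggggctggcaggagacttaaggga
Neither motif was matched in the windows of Tlr2 (whose start lies 216 bases inside the annotated gene), Ticam1 and Mavs, and no window was at hand for Zbp1, Dhx58 and Tlr4. The log2 intensity of Myd88 was 9.02, 9.09 and 9.33 in healthy fibroblasts. It was 9.21, 9.20 and 9.39 in MDA micrometastases and 10.50, 9.998 and 9.31 in MDA-LM2 micrometastases. It was 9.81, 9.85 and 10.11 in MDA macrometastases and 9.92, 10.11 and 10.06 in MDA-LM2 macrometastases. The macro arrays lay above all healthy and all MDA micro arrays, and the MDA-LM2 micro arrays were spread over the whole range, with replicate 1 the highest of all and replicate 3 among the healthy values. Myd88 rose by 0.78 ± 0.14 in MDA macrometastases (1.71-fold, adjusted p = 0.013) and by 0.88 ± 0.12 in MDA-LM2 macrometastases (1.84-fold, adjusted p = 0.0034). In MDA-LM2 micrometastases its log2 fold change was 0.79 ± 0.29, with an adjusted p of 0.36.

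**Figure D3:**
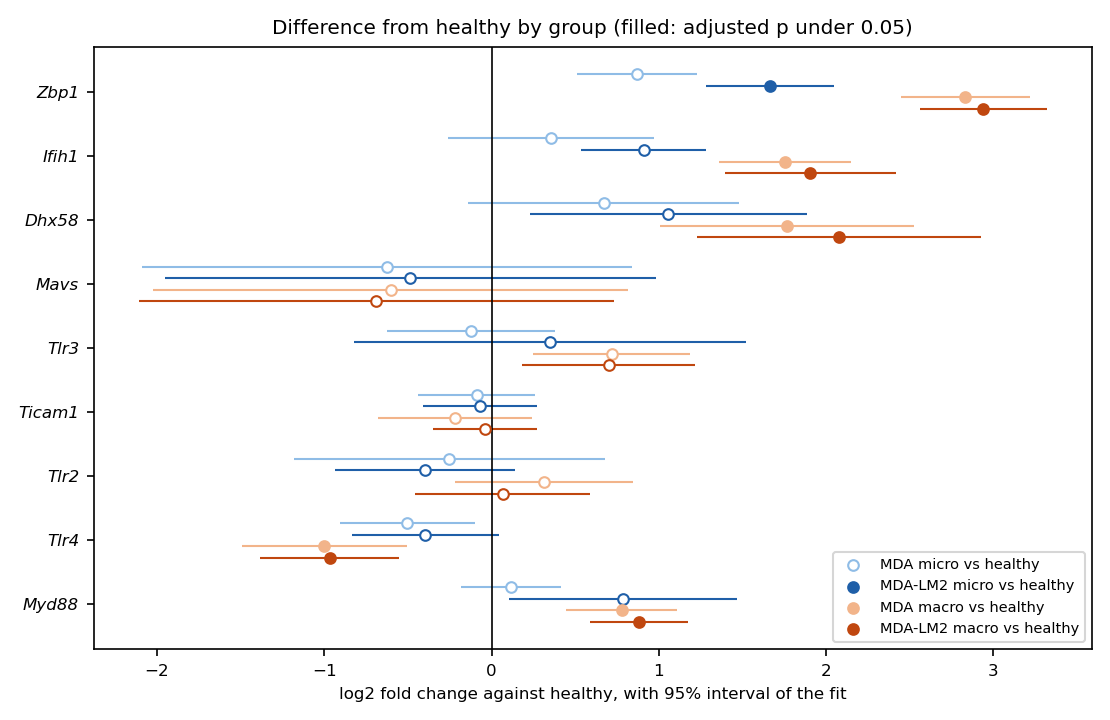
Log2 fold change of each of the 9 genes against healthy (horizontal axis) with the 95% interval of the limma fit, for MDA micro, MDA-LM2 micro, MDA macro and MDA-LM2 macro. Filled points passed an adjusted p of 0.05: Zbp1 in 3 groups, and Ifih1, Dhx58, Myd88 and Tlr4 in both macro groups, with Tlr4 at -0.999 and -0.97 the only filled points below 0.

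Counted over the 9 genes, macrometastases of both lines gave 4 genes that rose (Zbp1, Ifih1, Dhx58 and Myd88) and 1 that fell (Tlr4). In MDA macrometastases 15.2% of all genes were called, 8.43% higher and 6.8% lower, and the median log2 fold change was 0.72 over the 9 genes and 0.05 over all genes. In MDA-LM2 macrometastases 22.6% of all genes were called, 13.6% higher and 8.98% lower, and these medians were 0.70 and 0.08. Arrays did not overlap with healthy for 6 of the 9 genes in each comparison, Tlr3 being the sixth, where 37.7% and 43.4% of all genes did not overlap. All 4 comparisons against healthy used the same 3 healthy arrays, so that their values are not independent of each other.

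From micro- to macrometastases the lines were compared within themselves, without the healthy arrays. In the MDA line 5 of the 9 genes rose, where 18.4% of all genes were called and 10.4% were higher. Zbp1 rose by 1.96 ± 0.12 (adjusted p = 0.00021), Ifih1 by 1.40 ± 0.25 (adjusted p = 0.0089) and Dhx58 by 1.09 ± 0.30 (adjusted p = 0.043). Tlr3 rose by 0.84 ± 0.13 (adjusted p = 0.0045) and Myd88 by 0.66 ± 0.13 (adjusted p = 0.014). Arrays of the 2 stages did not overlap for 6 of the 9 genes, these 5 and Tlr4, against 39.2% of all genes. Tlr3 was thus called in this comparison although it missed the threshold against healthy, and with all 15 arrays in one fit neither Tlr3 (adjusted p = 0.13) nor Dhx58 (adjusted p = 0.053) passed here. The Dhx58 call was lost without MDA macro replicate 1 (1.12, adjusted p = 0.10) or 2 (0.86, 0.11) and without MDA micro replicate 1 (0.81, 0.092), 2 (1.27, 0.050) or 3 (1.20, 0.072). Without MDA micro replicate 1, which was high in Tlr2, the stage difference of Tlr2 went from 0.57 (adjusted p = 0.28) to 0.99 (adjusted p = 0.010).

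In the MDA-LM2 line 2 of the 9 genes rose and 1 fell between the stages, where 15.6% of all genes were called, 9.25% higher and 6.38% lower, and arrays did not overlap for 4 of the 9 (Zbp1, Ifih1, Tlr4 and Tlr2) against 36.3% of all genes. Zbp1 rose by 1.27 ± 0.13 (adjusted p = 0.00097) and Ifih1 by 0.996 ± 0.20 (adjusted p = 0.017), and the Ifih1 call was lost without MDA-LM2 macro replicate 3 (0.98, adjusted p = 0.058). Tlr4 fell by 0.57 ± 0.14 (adjusted p = 0.037), a call that was lost with the replicate block (adjusted p = 0.10), with the mean of its probe sets (-0.23, adjusted p = 0.39) and without MDA-LM2 macro replicates 1 (-0.65, 0.057), 2 (-0.49, 0.12) or 3 (-0.58, 0.10) or MDA-LM2 micro replicates 2 (-0.47, 0.085) or 3 (-0.58, 0.079). Dhx58 differed by 1.02 ± 0.35 (adjusted p = 0.095) and passed with the replicate block (adjusted p = 0.015) and without MDA-LM2 macro replicate 1 (1.34, 0.048) or MDA-LM2 micro replicate 2 (1.31, 0.044). Myd88 differed by 0.10 ± 0.28 (95% interval -0.56 to 0.75) and Tlr3 by 0.35 ± 0.47 (-0.74 to 1.45), and without MDA-LM2 micro replicate 3 these turned to -0.22 and -0.09.

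Whether the step between stages differed between the lines was tested directly, over the 12 metastasis arrays. The difference was negative for Zbp1, -0.69 ± 0.17 (95% interval -1.06 to -0.32, limma unadjusted p = 0.0017, adjusted p = 0.11), the step being 1.96 in MDA and 1.27 in MDA-LM2. For Myd88 it was -0.56 ± 0.33 (adjusted p = 0.58). None of the 9 genes passed in this limma test, where 0.566% of all genes did. At an unadjusted p under 0.05 the count was 1 of the 9 (Zbp1) and 2098 of 18193 genes. At the macrometastatic stage the lines themselves gave log2 differences between -0.25 (Tlr2) and 0.31 (Dhx58). In limma 0 of the 9 genes were called, where 0.011% of all genes were. An unadjusted p under 0.05 was found for 0 of the 9 and for 1864 of 18193 genes. The lines overlapped for all 9, while 16.1% of all genes did not overlap. For Zbp1 that difference was 0.11 ± 0.13, with a 95% interval from -0.20 to 0.41. For Dhx58 the interval was wider, from -0.44 to 1.07.

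The order of the group means was the same for the probe sets that stand for Zbp1, Ifih1 and Dhx58, from healthy over MDA micro, MDA-LM2 micro and MDA macro to MDA-LM2 macro. For Zbp1 each neighbour in this order was apart from the next except at the macro end. For Ifih1 the only neighbours that did not overlap were MDA-LM2 micro and MDA macro, and for Dhx58 all neighbours overlapped. The second probe set of Zbp1 gave this order too, and the other probe sets of Dhx58 did not, with MDA-LM2 macro below MDA macro in both. Over the 15 arrays Zbp1 correlated with Ifih1 at r = 0.934 and with Dhx58 at 0.891, and Ifih1 with Dhx58 at 0.778, all of these being descriptions across arrays that share the 5 groups. Tlr4 correlated with Zbp1 at r = -0.869. Tlr3 and Myd88 correlated at 0.849, sharing the high value of MDA-LM2 micro replicate 1 and the low value of replicate 3.

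Among genes outside the 9 whose mean reached the median of all genes, those most like Zbp1 over the 15 arrays were Cxcl9, a chemokine induced by interferon gamma (r = 0.989), Rnf213 (0.985) and Oasl2, a member of the oligoadenylate synthetase family (0.984). For Ifih1 they were Pxdn (0.959), Ddx58, which encodes the RNA sensor RIG-I (0.958), and Irf7, the interferon regulatory factor (0.955). For Dhx58 they were Rtp4 (0.945), Prim2 (0.923) and Eif2b2 (0.917). Myd88 was most like Prelid1 (0.918), Adam10 (0.905) and Ltbr, the lymphotoxin beta receptor (0.904), and Tlr3 most like Ube2n, a ubiquitin-conjugating enzyme (0.908), Pikfyve (0.908) and Trim30d (0.857). Tlr4, the gene that fell, was most like Tpcn1 (0.926), Fam162b (0.918) and Nhlrc2 (0.917).

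The surrounding pathways were described by 6 lists, of which 100 of 115 genes were measured. In MDA micrometastases 0 of the 100 were called by limma, as 0% of all genes. An unadjusted p under 0.05 was found for 22 of the 100 and for 1542 of 18193 genes. In MDA-LM2 micrometastases 4 rose, namely Oas1a, Oasl2, Ifit1 and Irf7, and 1 fell, the stress-induced transcription factor Atf3 (-1.28 ± 0.18, adjusted p = 0.044), against the 0.583% of all genes called. These calls rested on the full set of arrays: 0 of the 5 were left with the replicate block, without any 1 of the 3 MDA-LM2 micro arrays and without healthy replicate 1 or 2, and 1 was left without healthy replicate 3. In MDA macrometastases 32 rose and 4 fell, and in MDA-LM2 macrometastases 36 rose and 5 fell, against 15.2% and 22.6% of all genes. The median log2 fold change over the 100 genes was 0.23 and 0.28, compared with 0.05 and 0.08 over all genes.

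The list of other RNA sensors and their partners held the most calls. Of its 17 measured genes 9 rose and 0 fell in MDA macrometastases, and 10 rose and 0 fell in MDA-LM2 macrometastases, with median log2 fold changes of 1.11 and 1.19. Among all genes 8.43% and 13.6% were called higher in these groups. The oligoadenylate synthetase Oas1a, whose product activates RNase L, rose by 3.09 ± 0.18 and 3.26 ± 0.16 (adjusted p = 0.00031 and 0.00012), Ifit1, which binds RNA that lacks a host-type cap, by 2.32 ± 0.21 and 2.55 ± 0.23, Oasl1 by 2.21 ± 0.21 and 2.50 ± 0.25, and Oas3 by 2.35 ± 0.26 and 2.19 ± 0.23. Ddx58, the RIG-I gene and closest relative of Ifih1 in this list, was named outside the rule of largest changes. It rose by 1.11 ± 0.20 and 1.19 ± 0.19 (limma adjusted p = 0.012 and 0.0055). Of the 10 called in MDA-LM2 macrometastases 9 had a promoter window and 5 of these held GAAANNGAAA, and of the 7 not called 5 had a window and 1 held it.

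Among 17 genes for DNA sensors and partners of ZBP1, 5 rose and 1 fell in MDA macrometastases and 7 rose and 1 fell in MDA-LM2 macrometastases. Among all genes 15.2% and 22.6% were called in these groups. Ripk3, the kinase that ZBP1 engages, rose by 1.66 ± 0.11 and 1.79 ± 0.11 (adjusted p = 0.0004 and 0.00015). Mlkl, named outside the rule after its values were seen because its product acts after RIPK3, rose by 1.57 ± 0.16 and 1.48 ± 0.17 (adjusted p = 0.00155 and 0.00144). Pycard, the inflammasome adaptor, rose by 2.35 ± 0.14 and 2.33 ± 0.14, and Ifi204, a DNA sensor of the interferon-inducible p200 family, by 1.83 ± 0.24 and 1.83 ± 0.25. Casp1, the inflammasome protease, rose in MDA-LM2 macrometastases by 1.97 ± 0.17 (adjusted p = 0.00055), and in MDA macrometastases its log2 fold change was 0.75 ± 0.27 (adjusted p = 0.11).

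Of 17 further Toll-like receptors, co-receptors and chaperones, 3 rose and 1 fell in each macrometastasis group, which is little above the 15.2% and near the 22.6% called among all genes, and no other Toll-like receptor was among the 5 genes involved. Cd14, the co-receptor that delivers lipopolysaccharide to TLR4, rose by 1.19 ± 0.24 and 2.45 ± 0.26 (adjusted p = 0.019 and 0.0011) in the groups in which Tlr4 fell. Cd180, a TLR4-like receptor without a signalling domain, rose by 2.15 ± 0.40 and 1.92 ± 0.40, and Lbp, the lipopolysaccharide-binding protein, rose in MDA-LM2 macrometastases by 0.80 ± 0.18. Cd36, a scavenger receptor that assists TLR2, fell by 0.89 ± 0.19 and 1.11 ± 0.18 (adjusted p = 0.024 and 0.0056). Of 17 adaptors and kinases downstream, 1 rose and 1 fell in MDA macrometastases and 3 rose and 1 fell in MDA-LM2 macrometastases, again close to the share called among all genes, with medians of 0.12 and 0.09. Irak2, a kinase of the MYD88 complex, rose by 1.62 ± 0.24 and 1.50 ± 0.22, while Ikbkg, the regulatory subunit of the IKK complex, fell by 0.59 ± 0.12 in both. Ikbke and Tank, parts of the kinase complexes that act on interferon regulatory factors, rose in MDA-LM2 macrometastases by 0.79 ± 0.18 and 0.78 ± 0.19.

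Of 18 measured inhibitors of these pathways, 7 rose and 1 fell in MDA macrometastases and 8 rose and 1 fell in MDA-LM2 macrometastases, where 15.2% and 22.6% of all genes were called. Usp18, which restrains interferon receptor signalling, rose by 2.35 ± 0.16 and 2.57 ± 0.15, and Tnfaip3, the ubiquitin-editing enzyme A20, by 2.32 ± 0.16 and 1.89 ± 0.22. Trim30a rose by 2.07 ± 0.18 and 2.0 ± 0.16, and Zc3h12a, a ribonuclease that degrades cytokine transcripts, by 1.75 ± 0.22 and 1.54 ± 0.15. Of 14 transcription factors 7 rose and 0 fell in MDA macrometastases, and 5 rose and 1 fell in MDA-LM2 macrometastases, against the same shares of all genes. Irf7 rose by 3.55 ± 0.19 and 3.47 ± 0.23 (adjusted p = 0.00022 in both), and Irf1 by 1.0 ± 0.15 and 0.63 ± 0.12. Stat2, a subunit of the complex that binds the response element, rose by 0.86 ± 0.14 and 0.95 ± 0.13, and Rel, an NF-kB subunit, rose in MDA macrometastases by 1.09 ± 0.14.

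**Figure D4:**
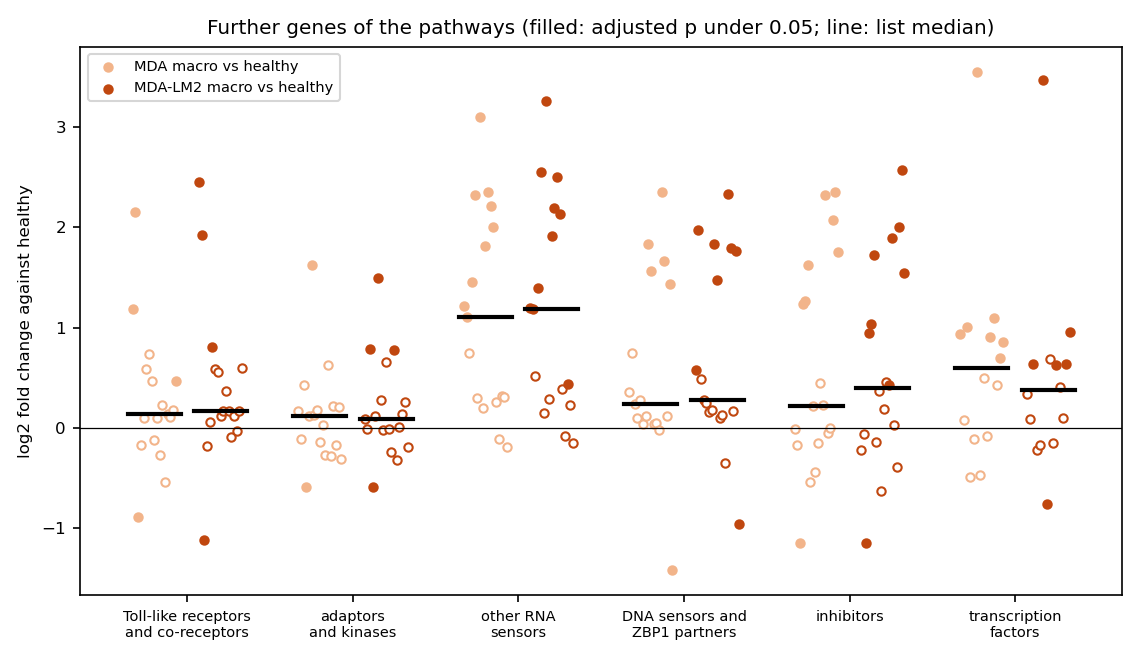
Log2 fold change against healthy (vertical axis) of the 100 further pathway genes in 6 lists (horizontal axis) in MDA macro (light) and MDA-LM2 macro (dark); each point is a gene, filled where the adjusted p was under 0.05, and black lines are list medians. The other RNA sensors have the highest medians, 1.11 and 1.19, and the adaptors and kinases the lowest, 0.12 and 0.09.

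Some markers of other cell types also differed from healthy at the macrometastatic stage. The summed intensity of 13 macrophage and monocyte markers was between 2615 and 3077 in healthy fibroblasts, between 2214 and 3454 in MDA micro, between 1875 and 2880 in MDA-LM2 micro, between 3797 and 4083 in MDA macro and between 2754 and 4638 in MDA-LM2 macro, so that it lay above the healthy range on every MDA macro array and overlapped with it in MDA-LM2 macro. The sum of 7 neutrophil markers lay above the healthy range (709 to 769) in both macro groups, between 804 and 943 in MDA and between 836 and 1678 in MDA-LM2. The sum of 6 dendritic cell markers did so too, with 770 to 822 in healthy, 866 to 974 in MDA macro and 889 to 1070 in MDA-LM2 macro. Of the 13, Cd68, Lyz2 and Laptm5 rose in MDA macro and Cd68 and Fcgr1 in MDA-LM2 macro. These and the following marker calls are to be read beside the share of all genes called. That share was 15.2% in MDA macro (8.43% higher) and 22.6% in MDA-LM2 macro (13.6% higher). Of the neutrophil markers Cxcr2 rose in both macro groups and Ltf in MDA-LM2 macro, and 0 dendritic cell markers were called by limma. At an unadjusted p under 0.05 the dendritic cell count was 1 of 6 in each macro group, against 5612 (MDA) and 6704 (MDA-LM2) of 18193 genes. Of 8 epithelial markers 2 rose in both macro groups, Krt18 by 3.38 ± 0.23 and 4.70 ± 0.36 and Krt8 by 2.20 ± 0.48 and 3.53 ± 0.21, while Epcam was not called. Of 7 endothelial markers Kdr rose by 3.09 ± 0.14 and 4.33 ± 0.12, and Tek and Cdh5 fell. In MDA-LM2 macro 2 endothelial markers rose in all, and 1 epithelial marker fell. The endothelial sum was 1651 to 2389 in healthy, 1558 to 1936 in MDA macro and 2766 to 3041 in MDA-LM2 macro. The epithelial sum was 1024 to 2943 in healthy, 2246 to 2694 in MDA macro and 3157 to 6211 in MDA-LM2 macro. Both sums lay above the healthy range on every MDA-LM2 macro array and overlapped with it in MDA macro. The mean log2 intensity of Kdr was 10.98 in MDA-LM2 macro against 6.65 in healthy, while Tek was 7.63 against 10.13 and Cdh5 6.58 against 7.70. Krt18 was 11.04 against 6.34 and Krt8 10.24 against 6.71, while Scgb1a1 was 6.29 against 9.20. Sums of intensity can rise with a few bright genes, so they do not measure the share of endothelial or epithelial cells. The part of other cell types in the values of the 9 genes and of the further pathway genes was not tested. In MDA-LM2 micrometastases, where 0.583% of all genes were called, 0 markers of these lists were, and the macrophage sum was between 1875 and 2880 against 2615 to 3077 in healthy.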

How the data were processed

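The deposited table held linear intensity values of 15 Affymetrix mouse arrays, which the authors had made by robust multi-array averaging in Chipster 3.8.0 from RNA of sorted fibroblasts (PicoPure extraction, Ovation Pico amplification). The values were taken to log2, and 64 control probe sets were left out. Of the 45100 probe sets 34944 had a single symbol in the platform annotation, 932 had several and 9224 had none; only the first kind was named, and of several probe sets the one with the highest mean stood for the gene. Groups came from the sample labels, and nothing was normalized again. Each pair of groups was fitted with limma 3.58.1 (lmFit and eBayes, R 4.3.3; Python 3.11.15 for the rest), two-sided, on all 18193 genes with Benjamini-Hochberg adjustment at 0.05, after the study's empirical Bayes comparisons; ± is the SE of the fit. The interaction was fitted on the 12 metastasis arrays. The fit was tested on simulated data. With 3 arrays a group, array number limits the precision, and no detection calls were used.

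The 9 genes were named in full. Of each pathway list up to 4 called genes with the largest change in macrometastases were named. Ddx58, Mlkl and the genes called in MDA-LM2 micrometastases were named outside this rule. For each called member the 3 genes with the highest Pearson r were named. Members and lists were chosen with earlier results of these data known. Alternatives were all 15 arrays in one fit, a replicate block, quantile normalization, median centring, the mean of all probe sets of a gene, probe sets one by one, dim genes (lowest 25% by mean) left out, and each array left out in turn. Promoter windows came from RefSeq (GRCm38.p6), and 6 of the 9 genes had one.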

Additional observations from a re-analysis of the deposited data

How the results depend on the processing

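With the probe set that stands for each gene, or the mean of its probe sets, Zbp1, Ifih1, Dhx58 and Myd88 kept their direction and their call against healthy in both macrometastasis groups under every alternative run, and Tlr4 kept its direction; of the other probe sets tested one by one, the dimmest of Dhx58 was not called and the dimmest of Tlr4 gave 0.08 and 0.23. Counts of called members changed as follows. With all 15 arrays in one fit 1 member (Zbp1) was called in MDA micro against healthy and 1 between the lines at the micro stage, where 0 had been, and 3 instead of 5 from micro to macro in MDA. The replicate block left 0 of 1 in MDA-LM2 micro against healthy. Over 30 same-numbered pairs the deviations from group means correlated between -0.065 and 0.074, and 6 pairs correlated best with their own number. Among the 6 were replicates 1, 2 and 3 of healthy with MDA micro (0.031, 0.067 and 0.074). No strong pairing by replicate number was seen, but with 3 arrays a group this check cannot exclude a shared batch. Under the replicate block 0 genes instead of 106 were called in MDA-LM2 micro. Leaving out 1 array gave between 0 and 1 called members in MDA-LM2 micro against healthy and between 1 and 3 from micro to macro in MDA-LM2. In the fits that leave 1 array, values that changed sign were all uncalled: Mavs against healthy spanned -1.02 to 0.16 (MDA micro), -0.88 to 0.31 (MDA-LM2 micro), -0.999 to 0.19 (MDA macro) and -1.08 to 0.10 (MDA-LM2 macro); Tlr3 spanned -0.33 to 0.069 (MDA micro), -0.22 to 0.80 (MDA-LM2 micro), -0.10 to 0.92 (between lines, micro) and -0.094 to 0.92 (stage, MDA-LM2); Ticam1 spanned -0.17 to 0.013 (MDA-LM2 micro) and -0.14 to 0.040 (MDA-LM2 macro); Tlr2 spanned -0.19 to 0.23 (MDA-LM2 macro); Myd88 spanned -0.22 to 0.38 (stage, MDA-LM2). The cause was not tested. All genes called in MDA-LM2 micro numbered between 0 and 46 without 1 array and 322 with all 15 arrays, where 22 instead of 0 were called in MDA micro; without 1 array they numbered between 1529 and 2138 of 2771 in MDA macro and between 2433 and 3316 of 4115 in MDA-LM2 macro. Of 26 further uncalled values between metastasis groups, from -0.50 to 0.39, 20 changed sign in some setting.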
